A study of Mus musculus with 30 samples.

Results

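The genes described here are 8 markers of CA1 pyramidal cells, Wfs1, Fibcd1, Pou3f1, Mpped1, Spink8, Gpr161, Lefty1 and Man1a, chosen by name from the 49315 genes of a table of raw read counts from mouse hippocampus. All 8 passed the filter on low counts and were among the 16486 genes tested. The study asked how loss of TIMP2, a secreted inhibitor of metalloproteinases, alters hippocampal transcripts. Hippocampal RNA came from 13 TIMP2 KO mice (7 females and 6 males) and 17 WT mice (7 females and 10 males), all of strain C57BL/6J, and 1 poly(A) library was sequenced per mouse. The TIMP2 KO line, a constitutive knockout, came from the Jackson Laboratory, the controls were littermates, and the study's methods give a pair of age ranges for its mice without saying at which of them RNA was taken.

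CA1 is the last of the CA fields in the chain of synapses that runs from the dentate gyrus through CA3, and its pyramidal cells send the main output of the hippocampus to the subiculum and the cortex. Its cells are told apart from those of CA3 and the dentate gyrus by a set of genes of unrelated function. The 8 genes encode secreted proteins (Lefty1, Spink8), proteins of the plasma membrane or cilium (Fibcd1, Gpr161), proteins of the endoplasmic reticulum and Golgi (Wfs1, Man1a), a transcription factor (Pou3f1) and a member of the metallophosphoesterase family (Mpped1). In RNA from whole tissue, fewer cells of a type and less RNA per cell cannot be told apart.

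Totals per mouse lay between 18345517 and 41081083 counts, and the lowest count of any of the 8 genes in any mouse was 169, for Lefty1. Timp2, the targeted gene, lay between 256 and 380 CPM (counts scaled to library size) in WT and between 130 and 171 CPM in TIMP2 KO mice, with no overlap, so the KO mice kept transcript counted on Timp2. Markers of the other fields were present in every mouse, such as Prox1 of dentate granule cells at 103 CPM or more and Bok of CA3 at 62.0 CPM or more. One library stood apart. In mouse 18, a male TIMP2 KO animal, the level was the highest of the 30 mice for 5 of the 8 genes (Wfs1, Pou3f1, Spink8, Gpr161 and Lefty1) and the lowest for Timp2. In the same mouse 10 of 12 pyramidal cell genes shared by the CA fields were at their highest, such as Hpca at 2524 CPM against 1400 to 2060 in the other mice. Of 9 further CA1 genes 5 were at their lowest there. These were Dcn, which encodes the proteoglycan decorin, at 5.74 CPM against 27.0 to 66.1, Grp, which encodes gastrin-releasing peptide, at 6.89 against 17.0 to 31.2, Ccn3 at 84.2 against 122 to 191, Calb1, which encodes calbindin, at 116 against 132 to 187, and Cds1 at 76.0 against 82.6 to 104. The share of all genes tested that were at their highest or lowest in mouse 18 was not computed, so these counts have no baseline. The main counts and values were computed again without this mouse, and those that changed most are given beside the results.

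In GRCm38, Wfs1 (ENSMUSG00000039474) lies at chr5:36966104-36989205 on the minus strand, Fibcd1 (ENSMUSG00000026841) at chr2:31813290-31846005 on the minus strand, and Pou3f1 (ENSMUSG00000090125) at chr4:124656807-124660655 on the plus strand as a single exon. Mpped1 (ENSMUSG00000041708) lies at chr15:83779467-83858494, Spink8 (ENSMUSG00000050074) at chr9:109812280-109826633, Gpr161 (ENSMUSG00000040836) at chr1:165295789-165326745 and Lefty1 (ENSMUSG00000038793) at chr1:180935022-180938400, all on the plus strand. Man1a (ENSMUSG00000003746) lies at chr10:53904785-54076609 on the minus strand. All are protein-coding, and the counts fall on their exons.

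Promoter windows, from 250 bases before to 50 bases after each start in RefSeq (GRCm38.p6), were found for 5 of the 8 genes (Wfs1, Fibcd1, Mpped1, Gpr161 and Man1a). Those of Mpped1, Fibcd1 and Gpr161 are shown because they differ in base composition. Levels of Fibcd1 went together across mice with those of both Mpped1 (Pearson's r = 0.60) and Gpr161 (r = 0.56). Any link of base composition to such covariation was not tested. The capitals mark GGGCGG on either strand, the GC box that SP factors bind, which is present in 35.7% of 32851 such windows. The window of Mpped1 (chr15:83779773-83780072, plus strand) was 89.3% G and C and held 9 copies, and that of Fibcd1 (chr2:31845956-31846255, minus strand) was 74.3% G and C and held 2. A second RefSeq start of Mpped1 (chr15:83784579-83784878) gave a window of 47.3% G and C with 0 copies. The first window of Gpr161 (chr1:165295516-165295815, plus strand) was 44.0% G and C and held 0. The median over all windows was 52.7%.
Mpped1: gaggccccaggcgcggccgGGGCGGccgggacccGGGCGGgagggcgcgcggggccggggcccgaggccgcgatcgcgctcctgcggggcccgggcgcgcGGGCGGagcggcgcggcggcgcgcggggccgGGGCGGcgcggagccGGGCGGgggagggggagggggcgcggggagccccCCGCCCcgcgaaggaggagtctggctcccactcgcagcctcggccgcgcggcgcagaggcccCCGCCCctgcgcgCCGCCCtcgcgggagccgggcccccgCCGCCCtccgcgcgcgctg
Fibcd1: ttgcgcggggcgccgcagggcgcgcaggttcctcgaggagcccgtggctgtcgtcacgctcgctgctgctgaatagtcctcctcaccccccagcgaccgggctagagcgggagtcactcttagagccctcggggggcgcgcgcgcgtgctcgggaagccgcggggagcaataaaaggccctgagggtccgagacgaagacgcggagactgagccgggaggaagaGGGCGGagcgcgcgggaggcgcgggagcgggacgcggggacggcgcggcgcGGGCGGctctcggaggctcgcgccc
Gpr161: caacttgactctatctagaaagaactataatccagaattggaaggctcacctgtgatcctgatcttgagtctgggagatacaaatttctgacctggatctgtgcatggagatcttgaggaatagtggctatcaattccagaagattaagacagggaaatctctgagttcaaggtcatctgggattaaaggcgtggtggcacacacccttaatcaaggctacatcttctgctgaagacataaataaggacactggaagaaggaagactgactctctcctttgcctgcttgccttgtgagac
The windows of Wfs1 (70.0%) and Man1a (72.7%) were also rich in G and C, with 4 and 2 copies. A match is a sequence feature and says nothing of binding in these mice.

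Most of the transcript sequence of the 8 genes was particular to each gene, least so for Lefty1 and Pou3f1. No 50-base stretch of the annotated transcripts of Wfs1, Fibcd1, Mpped1 or Spink8 occurred in a transcript of another gene. For Lefty1, 17.9% of the stretches also occurred in its relative Lefty2, so reads within them fit both genes. Lefty2 itself lay at 1.34 CPM on average (SD 0.39, n = 30). Pou3f1 shared 7.42% of its stretches with Gm2164 on the opposite strand and Man1a 1.02% with Gm16998. The strand setting of the counting was not given in the sources used here, so reads of these genes and their antisense partners could not be told apart.

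Per kilobase of exon, the levels averaged over the 30 mice fell in the order Mpped1 (60.2 CPM per kb), Fibcd1 (41.5), Wfs1 (28.8), Spink8 (27.1), Pou3f1 (25.9), Gpr161 (10.9), Man1a (9.65) and Lefty1 (5.74). Their SDs were 4.10, 4.33, 3.78, 3.24, 2.97, 1.57, 0.96 and 1.18 CPM per kb (n = 30). The means of the neighbours Wfs1, Spink8 and Pou3f1 lay within an SD of each other. Those of Gpr161 and Man1a lay within the SD of Gpr161. All genes were measured in the same mice, and whether their levels differ was not tested. Mpped1 stood at the 95.5th percentile of the genes tested and Lefty1 at the 58.5th. The biological coefficient of variation between mice, from the fit with 4 sex and genotype groups, was lowest for Mpped1 (6.44%) and highest for Lefty1 (14.4%), with a median over all genes of 6.83%.

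**Figure D1:**
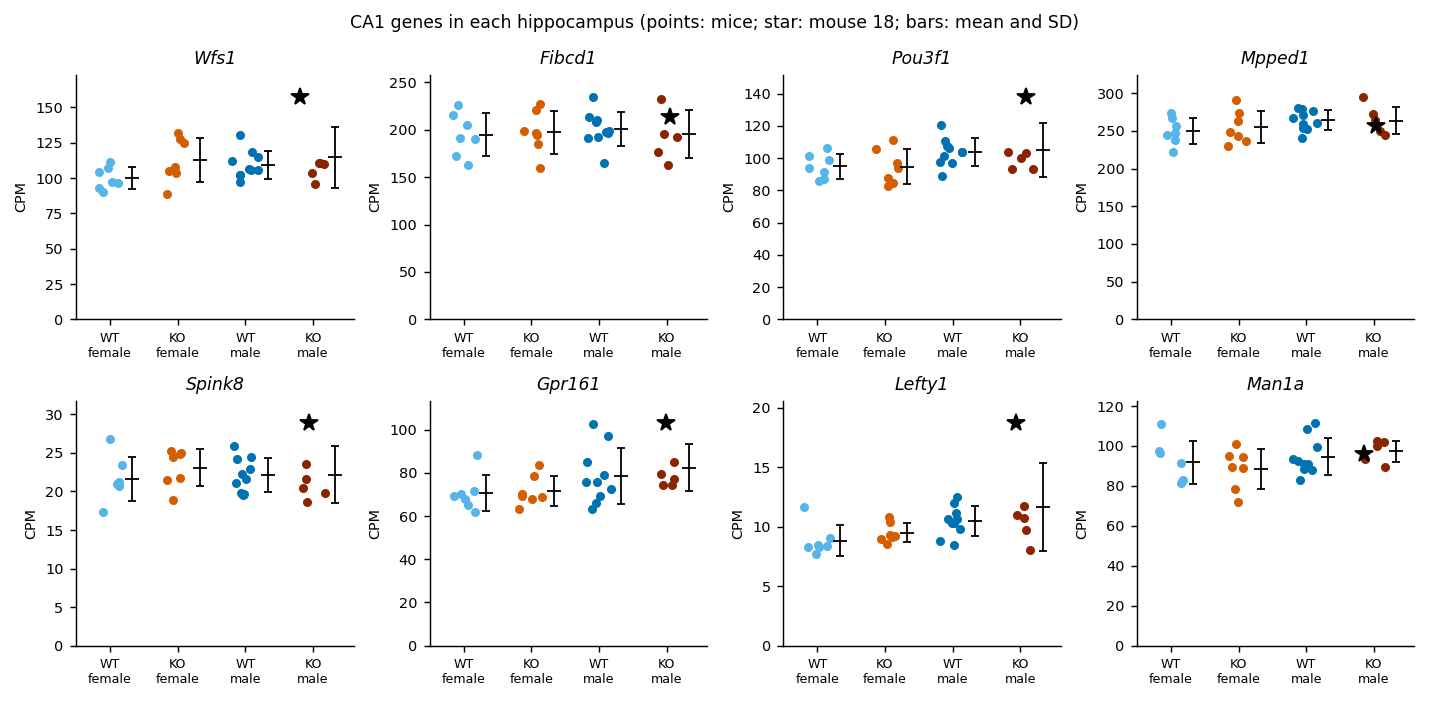
Level of each of the 8 genes, in CPM on axes that start at 0, in WT and TIMP2 KO mice of each sex. Each point is 1 mouse, the star is mouse 18, and the bars give the mean and SD of the group; the genotypes overlap for every gene, and the star lies above all other mice for 5 genes.

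No change of the CA1 genes was detected in TIMP2 KO hippocampi. By the quasi-likelihood test of edgeR, none of the 8 had a Benjamini-Hochberg adjusted p under 0.05, where 0.0546% of all genes tested did. None had an unadjusted p under 0.05 either, where 5.03% of all genes did. The median log2 fold change of the 8 was 0.01, beside a median near 0 (0.00011) over all genes tested. Leaving out mouse 18 gave a median of -0.01 and again 0 of 8 genes at an unadjusted p under 0.05.

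Lefty1, a secreted antagonist of Nodal within the TGF-beta family, lay between 7.74 and 12.5 CPM in WT mice (median 9.84) and between 8.06 and 18.7 CPM in TIMP2 KO mice (median 9.69). The groups overlapped throughout except for mouse 18, the next KO mouse lying at 11.7 CPM. The log2 fold change was 0.10 (standard error 0.09, 95% interval -0.08 to 0.29, edgeR p = 0.269), and 0.0019 without mouse 18. Spink8, a Kazal-type serine protease inhibitor, lay between 17.4 and 26.8 CPM in WT (median 21.2) and between 18.7 and 28.9 CPM in TIMP2 KO mice (median 21.8). Its log2 fold change was 0.05 (interval -0.07 to 0.17), and 0.013 without mouse 18, again the highest KO mouse.

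Fibcd1, a membrane protein that binds acetylated sugars through a fibrinogen-like domain, lay between 163 and 235 CPM in WT (median 197) and between 160 and 232 CPM in TIMP2 KO mice (median 195). Its log2 fold change was -0.01 (standard error 0.05, interval -0.12 to 0.09), and -0.02 without mouse 18. Gpr161, a receptor of the primary cilium that restrains Hedgehog signalling, lay between 62.1 and 102.6 CPM in WT (median 71.6) and between 63.5 and 103.0 CPM in KO mice (median 74.5). The ranges of both genes nearly coincided between genotypes. The log2 fold change of Gpr161 was 0.03 (standard error 0.07, interval -0.11 to 0.16), and -0.02 without mouse 18.

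Wfs1, which encodes the endoplasmic reticulum protein wolframin, lay between 90.2 and 130.5 CPM in WT (median 105.6) and between 88.5 and 157.5 CPM in TIMP2 KO mice (median 110.2). Only 2 of 13 KO mice exceeded the highest WT mouse. Its log2 fold change was the largest of the 8, at 0.11 (standard error 0.06, interval -0.01 to 0.23, edgeR p = 0.0773, adjusted p = 0.998), and it was 0.06 (p = 0.248 by edgeR) without mouse 18. With sex as a covariate the edgeR p was 0.0494. Man1a, a Golgi mannosidase that trims N-linked glycans, lay between 81.7 and 111 CPM in WT (median 91.5) and between 71.9 and 102.6 CPM in KO mice (median 94.4), with a log2 fold change of -0.02 (standard error 0.05, interval -0.12 to 0.08).

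Pou3f1, a POU-domain transcription factor also known as Oct-6, lay between 85.7 and 121 CPM in WT (median 101) and between 82.5 and 138 CPM in TIMP2 KO mice (median 97.2). Mpped1 lay between 222 and 281 CPM in WT (median 259) and between 229 and 295 CPM in KO mice (median 256). Both sets of mice overlapped almost completely. The log2 fold change was -0.0060 for Pou3f1 (interval -0.12 to 0.11) and 0.0046 for Mpped1 (interval -0.07 to 0.08), the narrowest interval among the 8 genes. Without mouse 18 the value of Pou3f1 was -0.05 (p = 0.239 by edgeR). For the 7 genes other than Lefty1 the intervals ended within 0.23 of 0.

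The sexes were then taken apart, in a single fit with a mean for each of the 4 groups. In females 0 of 8 genes had an adjusted p under 0.05 (0.0121% of all genes) and 1 of 8 had an unadjusted p under 0.05 (4.37% of all genes). That gene was Wfs1, at 90.2 to 111 CPM in 7 WT females (median 97.4) and 88.5 to 132 CPM in 7 TIMP2 KO females (median 108), with a log2 fold change of 0.18 (standard error 0.08, edgeR p = 0.0458, adjusted p = 1). Of the 7 KO females 3, at 125, 128 and 132 CPM, lay above every WT female. In males 0 of 8 genes passed either threshold (0.0182% and 3.86% of all genes), and the value of Wfs1 was 0.07 (standard error 0.08), which was -0.05 without mouse 18. The difference between the sexes was tested as an interaction, which gave 0 of 8 genes at an adjusted p under 0.05 (0% of all genes) and 0 of 8 at an unadjusted p under 0.05 (2.57%). For Wfs1 it was 0.11 (standard error 0.12, edgeR p = 0.361), and 0.22 (p = 0.0286 by edgeR, adjusted p = 1.00) without mouse 18.

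**Figure D2:**
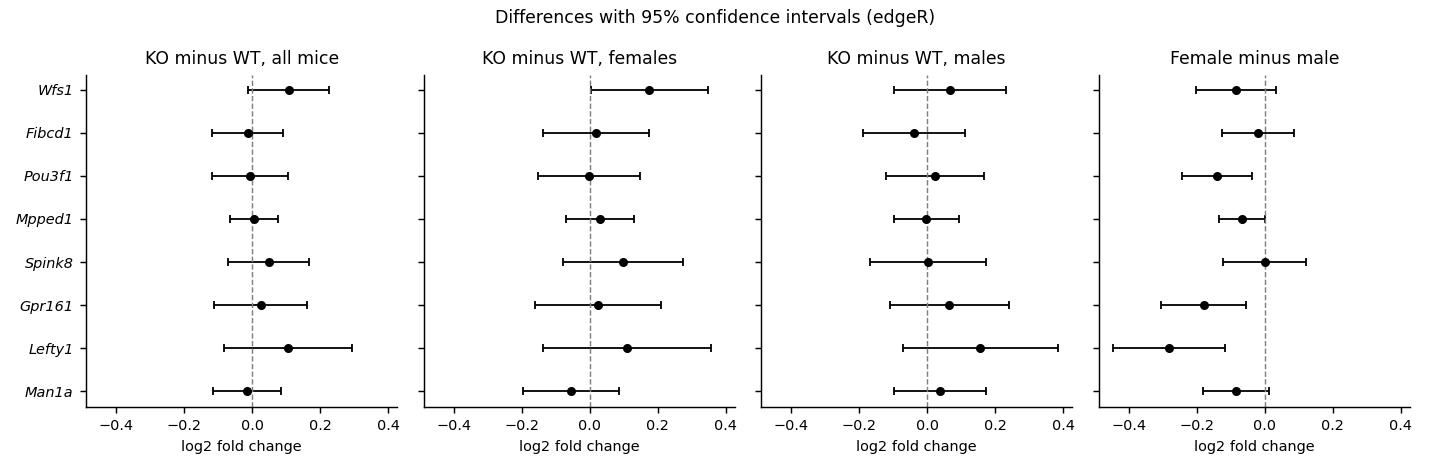
Log2 fold change (x axis) of each of the 8 genes (y axis) with its 95% confidence interval, for TIMP2 KO minus WT in all mice, in females and in males, and for female minus male. The KO intervals include 0 for every gene except Wfs1 in females, and those of Pou3f1, Gpr161 and Lefty1 lie below 0 for female minus male.

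Between the sexes, 3 of the CA1 genes were lower in females at an unadjusted p under 0.05, with genotype in the fit. They were Lefty1, Gpr161 and Pou3f1, 3 of 8 genes where 9.77% of all genes tested passed that threshold. None passed an adjusted p of 0.05 (0.218% of all genes did). Lefty1 lay between 7.74 and 11.7 CPM in 14 females (median 9.01) and between 8.06 and 18.7 CPM in 16 males (median 10.6), and 12 of 14 females lay below the male median. Its log2 difference was -0.28 (standard error 0.08, edgeR p = 0.0015, adjusted p = 0.179), and -0.20 (edgeR p = 0.00286) without mouse 18. Gpr161 lay between 62.1 and 88.0 CPM in females (median 69.2) and between 63.1 and 103.0 CPM in males (median 76.4), a log2 difference of -0.18 (standard error 0.06, edgeR p = 0.00609, adjusted p = 0.295), and -0.15 without mouse 18. Pou3f1 lay between 82.5 and 111 CPM in females (median 93.7) and between 88.8 and 138 CPM in males (median 103), a log2 difference of -0.14 (standard error 0.05, edgeR p = 0.00819, adjusted p = 0.331), and -0.10 without mouse 18. For both genes 11 of 14 females lay below the male median. Marker genes of dentate granule cells moved the other way, with 4 of 9 higher and 0 lower in females (median 0.10), and their part in the sex differences of the CA1 genes was not tested.

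The other 5 genes did not pass the unadjusted threshold between the sexes. Their log2 differences were -0.08 for Man1a and for Wfs1, -0.07 for Mpped1 (edgeR p = 0.0524), -0.02 for Fibcd1 and -0.00081 for Spink8. All 8 differences were thus negative, where 49.4% of all genes tested had a negative value, though the 8 genes covary across mice and so are not 8 separate observations. Spink8 was positive, at 0.03, without mouse 18, and 4 of 8 genes then had an unadjusted p under 0.05, Mpped1 being added at -0.07 (edgeR p = 0.0429).

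Genes that accompany the 8 in the same cells or pathways were also compared by genotype. Of all genes tested, 5.03% had an unadjusted p under 0.05 in that comparison. Of 9 further CA1 genes, such as Tyro3, Ndst4, Calb1 and Dcn, 0 had an unadjusted p under 0.05 in either direction, with a median log2 fold change of -0.01, which was 0.02 without mouse 18. The largest value was that of Ndst4, a heparan sulphate sulphotransferase, at -0.10 (edgeR p = 0.144). Of 12 pyramidal cell genes shared by the CA fields 1 was higher and 0 were lower at an unadjusted p under 0.05 (median -0.0035). That gene was Dkk3, a secreted protein of the Dickkopf family, at 0.07 (edgeR p = 0.0356). Without mouse 18, 0 of the 12 were higher and 2 were lower.

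A further list held 28 relatives and pathway partners of the 8 genes. In TIMP2 KO mice 1 was higher and 2 were lower at an unadjusted p under 0.05 (5.03% of all genes). None had an adjusted p under 0.05. On the log2 scale the difference of Pou3f4, a POU-domain factor related to Pou3f1, was 0.15 (edgeR p = 0.0337). Smad3, which carries TGF-beta and activin signals to the nucleus, had -0.09 (edgeR p = 0.0197), and Acvr1b, a receptor for activin and Nodal, had -0.05 (edgeR p = 0.0448). Nodal itself, the ligand that Lefty1 opposes, averaged 0.54 CPM and had 0.05 (edgeR p = 0.799). In the Hedgehog pathway Ptch1 (0.01), Smo (-0.05), Sufu (-0.05) and Gli1 (-0.28, edgeR p = 0.103) did not pass. Neither did the glycan-processing partners of Man1a, such as Man1a2 (0.01) and Mgat1 (-0.01), nor Cisd2 (0.02), which encodes a protein of the endoplasmic reticulum linked to another form of Wolfram syndrome.

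Between the sexes, 9.77% of all genes tested had an unadjusted p under 0.05. Of the 9 further CA1 genes 0 were lower and 1 was higher in females at that threshold. That gene was Cds1, an enzyme of phospholipid synthesis, at 0.09 (edgeR p = 0.0124). Of the 12 shared pyramidal cell genes 3 were lower and 0 higher in females, namely Neurod6 (-0.14) and Neurod2 (-0.11), transcription factors of glutamatergic neurons, and Slc17a7 (-0.07), the vesicular glutamate transporter. None of these had an adjusted p under 0.05 by edgeR. Among the 28 relatives and partners 3 were lower and 2 higher, and Smad3 had the smallest p, at 0.13 (edgeR p = 0.00036, adjusted p = 0.0914).

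Genes of other fields and cell types also differed between the sexes. Over all genes tested, 0.218% had an adjusted and 9.77% an unadjusted p under 0.05. Of the 9 dentate granule cell genes, Trpc6, a cation channel, was higher in females by 0.32 on the log2 scale (edgeR adjusted p = 0.000881) and C1ql2 by 0.23 (edgeR adjusted p = 0.0417). Without mouse 18 the adjusted p of C1ql2 was 0.0565 and that of Trpc6 was 0.00164. Stxbp6 (0.17) and Plk5 (0.21) were higher at an unadjusted p under 0.05. Of 7 CA2 genes 2 were lower in females at that threshold, Cacng5 (-0.23) and Amigo2 (-0.14), and of 7 CA3 genes 2 were lower, Bok (-0.15) and Elavl2 (-0.10). Of 7 immediate early genes 6 were higher in females (median 0.37), as were 3 of 8 neocortex genes (1 of them with an adjusted p under 0.05) and 3 of 6 astrocyte genes.

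The lists of neighbouring cell types showed what else the hippocampal samples held. By genotype, 5.03% of all genes tested had an unadjusted p under 0.05. In TIMP2 KO against WT, 0 of 7 CA2 genes and 0 of 7 CA3 genes had an unadjusted p under 0.05, with medians of 0.05 and 0.04 on the log2 scale. Without mouse 18 the CA2 median was 0.00099. Of 9 dentate granule cell genes 0 were higher and 5 were lower, with a median of -0.13. The 5 were Tdo2 (-0.22), Dsp (-0.21), Prox1 (-0.16), Dock10 (-0.14) and Stxbp6 (-0.13), and none of them had an adjusted p under 0.05. Without mouse 18, 6 of the 9 were lower. All 7 immediate early genes were higher at an unadjusted p under 0.05 (median 0.42), among them Fos (0.75) and Arc (0.50), again with no adjusted p under 0.05. Of 8 choroid plexus genes 3 were tested, and 2 were higher at that threshold, with a median of 1.52. These were Ttr, at 3.67 (edgeR adjusted p = 0.0326), and Clic6, at 1.52 (edgeR p = 0.000831). The mean of the 3 genes lay between 4.28 and 6.09 log2 CPM in KO mice 1, 5, 11 and 20. In WT mice it lay between 0.36 and 3.47, and the other KO mice fell within that range. Ttr was the only gene of all these lists with an adjusted p under 0.05. The 8 CA1 genes had no call in either direction.

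Across mice most of the CA1 genes varied together. All 28 pairs of the 8 genes had a positive Pearson's r of log2 CPM over the 30 mice. Their median was 0.44, against a median near 0 over all pairs of genes tested. Of the 28 pairs 11 reached r = 0.5, against 1.3% of all pairs of genes tested. The pairs were tested by 2-sided permutation with 100000 resamples and Benjamini-Hochberg adjustment over the 28 pairs, which called 19 pairs by Pearson's r and 17 by Spearman's rho, 16 of them in common. Without mouse 18, 12 of the 19 pairs were still called and 7 were not. With the mean of each sex and genotype group removed, 12 pairs were called. In WT and in TIMP2 KO mice taken alone, 26 of 28 pairs were positive in both. The shares of all pairs of genes that are called by these tests or positive were not computed, so these counts have no baseline.

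Gpr161 and Lefty1 formed the closest pair, with r = 0.79 (permutation p = 1e-05, the smallest the test can give, adjusted p = 0.00014) and rho = 0.78 (adjusted p = 0.00028). The value was 0.76 in WT and 0.88 in TIMP2 KO mice, 0.87 in females and 0.70 in males. It was 0.72 without the 2 mice farthest from the median of Gpr161, one of them mouse 18, and 0.75 without mouse 18 alone.

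Pou3f1 joined this pair. With Lefty1 it gave r = 0.73 (permutation p = 1e-05, adjusted p = 0.00014) and rho = 0.56 (adjusted p = 0.0078), which fell to 0.57 without mouse 18 and to 0.49 without the 2 mice farthest from the median. Pou3f1 with Gpr161 gave r = 0.65 (permutation p = 9e-05, adjusted p = 0.00084) and rho = 0.63 (adjusted p = 0.00238), and 0.58 without the 2 farthest mice. Within WT and TIMP2 KO mice the latter was 0.50 and 0.86. Pou3f1 was also paired with Man1a, at r = 0.55 (permutation p = 0.00151, adjusted p = 0.00485), rho = 0.55 (adjusted p = 0.0078) and 0.56 without the 2 farthest mice.

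Fibcd1 and Mpped1 gave r = 0.60 (permutation p = 0.00046, adjusted p = 0.00258) and rho = 0.55 (adjusted p = 0.0078). This pair did not depend on mouse 18, with 0.61 when it was left out, and rose to 0.66 without the 2 mice farthest from the median of Fibcd1. It was 0.67 in WT, 0.53 in TIMP2 KO, 0.66 in female and 0.56 in male mice. Both genes had further pairs that were called with and without mouse 18. Leaving it out took r of Mpped1 from 0.45 to 0.63 with Lefty1, from 0.43 to 0.55 with Wfs1 and from 0.44 to 0.55 with Pou3f1. With Gpr161 it went from 0.44 to 0.50, and with Man1a it stayed at 0.43. The r of Fibcd1 went from 0.56 to 0.55 with Gpr161 and from 0.51 to 0.55 with Lefty1. Mpped1 with Lefty1 was 0.78 in WT but 0.20 in TIMP2 KO mice.

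Some pairs were no longer called without mouse 18. Wfs1 with Lefty1 gave r = 0.64 (permutation p = 0.00042, adjusted p = 0.00258) and rho = 0.41 (adjusted p = 0.0452), but 0.41 (adjusted p = 0.0547 by permutation) without that mouse. Wfs1 with Pou3f1 gave r = 0.60 (adjusted p = 0.00392 by permutation) and rho = 0.40 (adjusted p = 0.0452), and r = 0.40 (adjusted p = 0.0563) without it. Without that mouse, r of Spink8 went from 0.54 to 0.40 with Pou3f1, from 0.54 to 0.38 with Lefty1 and from 0.46 to 0.33 with Gpr161, and the calls were lost. With Fibcd1 it moved only from 0.40 to 0.37, with adjusted p-values of 0.0429 and 0.0748 by permutation. Wfs1 with Gpr161 went from r = 0.42 to 0.23. Man1a stood furthest from the other genes, since 2 of its 7 pairs were called, and its r was 0.04 with Fibcd1 and 0.09 with Spink8.

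**Figure D3:**
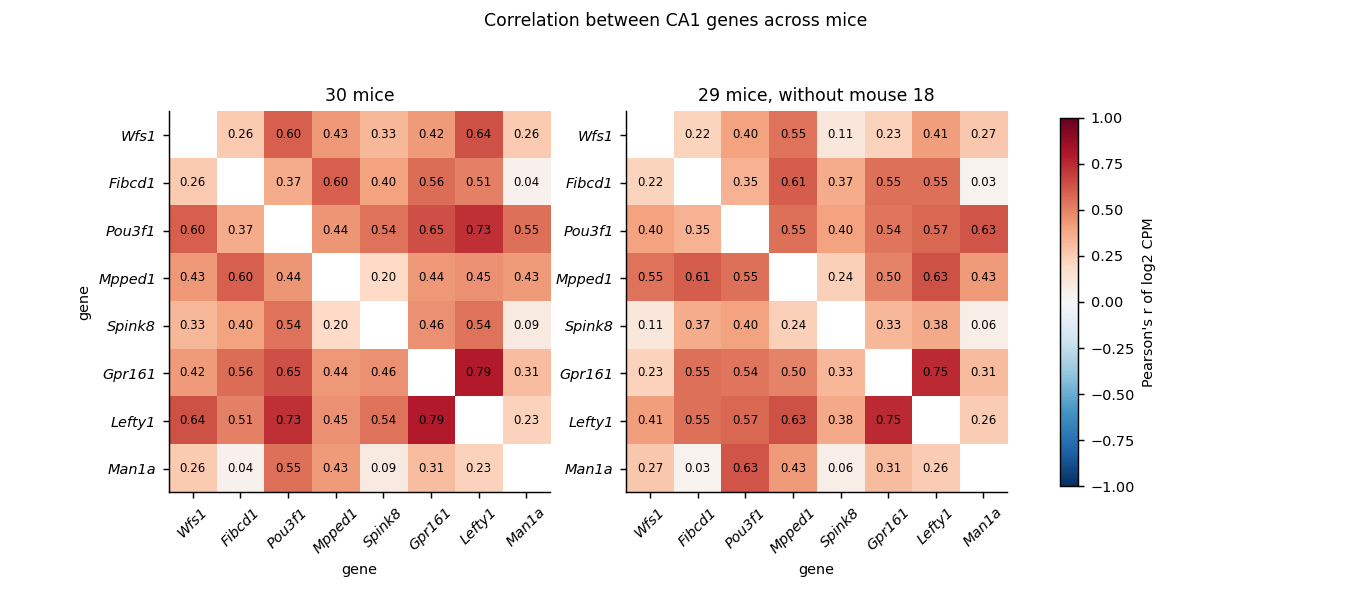
Pearson's r of log2 CPM between each 2 of the 8 genes (both axes), over 30 mice on the left and over 29 mice without mouse 18 on the right. The value of each pair is printed in its square; every value is positive, and the pair of Gpr161 and Lefty1 is the highest in both panels (0.79 and 0.75).

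The levels of the 8 genes were then set beside the mean log2 CPM of marker lists of other hippocampal fields, in 40 relations chosen after the values were seen. Mpped1 was the gene with the firmest relation. It fell as dentate granule cell genes rose, with r = -0.69 (permutation p = 4e-05, adjusted p = 0.0016) and rho = -0.67 (adjusted p = 0.0024), and -0.64 without the 2 farthest mice. The value was -0.80 in WT and -0.70 in TIMP2 KO mice, -0.63 in females, -0.68 in males and -0.69 without mouse 18. Fibcd1 gave r = -0.46 with the same list (adjusted p = 0.0434 by permutation) and rho = -0.32 (adjusted p = 0.27), and Wfs1 gave r = -0.38 (adjusted p = 0.144) and rho = -0.61 (adjusted p = 0.0104). The r of Wfs1 was -0.57 in WT but -0.08 in TIMP2 KO mice, and -0.59 in females but -0.02 in males.

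Lefty1 rose with the mean of CA2 genes, with r = 0.63 (permutation p = 0.00012, adjusted p = 0.0024) and rho = 0.56 (adjusted p = 0.0211), and 0.52 without mouse 18. Spink8 gave r = 0.58 with the CA2 list (adjusted p = 0.0101 by permutation) and rho = 0.50 (adjusted p = 0.0546). The CA2 genes did not all move the same way. With the mean of the 8 standardised levels, r was 0.66 for Cacng5, 0.63 for Rgs14, 0.53 for Amigo2 and 0.48 for Map3k15. It was 0.04 for Necab2, -0.08 for Pcp4 and -0.59 for Ntf3, and -0.50 for Ntf3 without mouse 18. With the pyramidal cell genes shared by the CA fields, Lefty1, Gpr161 and Pou3f1 gave r of 0.59, 0.55 and 0.53, which fell to 0.30, 0.40 and 0.28 without mouse 18. In all, 10 of the 40 relations had an adjusted p under 0.05 by Pearson's r and 3 by Spearman's rho, and none of them was with CA3 genes. All values of a mouse come from 1 library and are shares of its total.

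**Figure D4:**
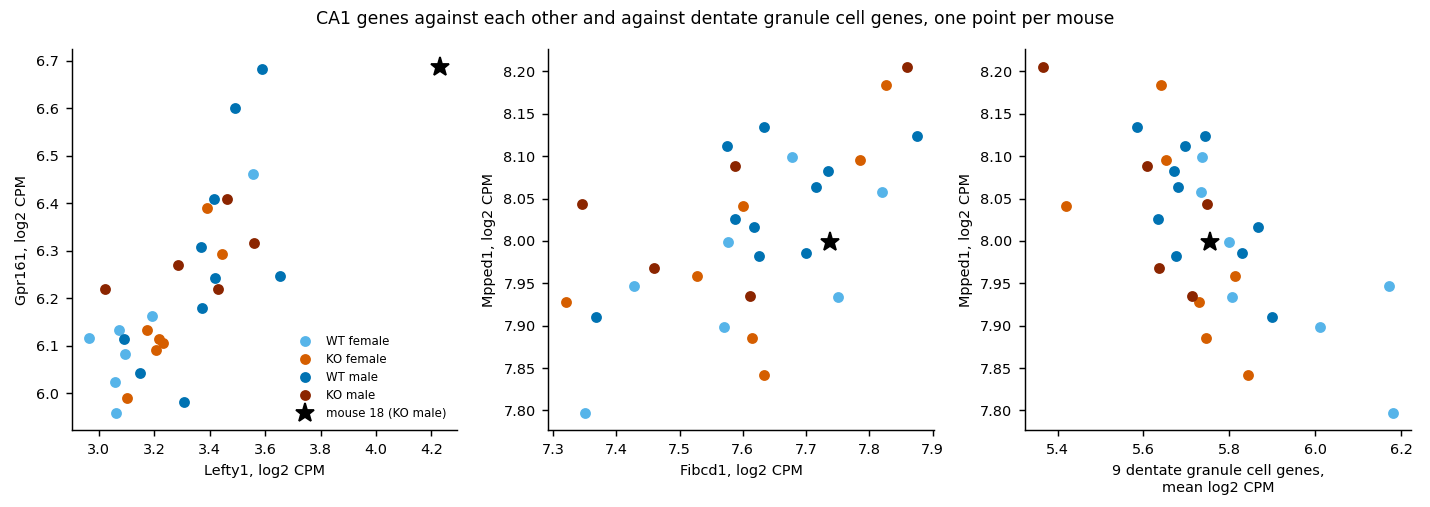
Each point is 1 mouse, coloured by sex and genotype, with mouse 18 as a star, and both axes are log2 CPM. Gpr161 rose with Lefty1 (r = 0.79), Mpped1 rose with Fibcd1 (r = 0.60) and Mpped1 fell with the mean of 9 dentate granule cell genes (r = -0.69).

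Among all other genes tested, those closest to the mean of the 8 standardised levels over the 30 mice were Plk2 (r = 0.84), Hunk (0.79), Pex5l (0.78), Chrna5 (0.78), Iqsec1 (0.77), Rara (0.77), Nuak1 (0.77), Asap2 (0.77), Sh3rf1 (0.76) and Efcab6 (0.76). Plk2 is an activity-regulated kinase, Pex5l encodes a subunit that binds HCN channels, Chrna5 a nicotinic receptor subunit and Rara a retinoic acid receptor. Plk2 lay at 222 CPM on average (SD 16.9, n = 30), and its r was 0.70 in WT, 0.94 in TIMP2 KO mice and 0.79 without mouse 18. At the other end were Ptgr1 (-0.73), Synpr (-0.73), Vwa3a (-0.69), C1ql2 (-0.66) and Ccdc62 (-0.66). Synpr encodes the synaptic vesicle protein synaptoporin and C1ql2 a secreted C1q-like protein, both known from granule cells and their mossy fibres. These genes were ranked by this measure, so the values are a description.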

How the data were processed

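Hippocampal RNA of 30 mice was sequenced as paired reads from poly(A) libraries. Per the submitters' processing notes, the authors trimmed reads with Trimmomatic 0.36, aligned them to GRCm38 (mm10) with STAR 2.5.2b and counted them with featureCounts (Subread 1.5.2). They deposited raw counts per gene and mouse, with no normalization. The annotation release and strand setting were not given in the sources used here. Each of the 30 columns matched a mouse, and the counts of no 2 mice were identical. Of 49315 identifiers, 259 had no entry in GENCODE M21, from which names and GRCm38 positions were taken, and 15765 genes had 0 counts in every mouse.

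TMM scaling, a filter on lowly counted genes (filterByExpr by genotype) and the quasi-likelihood test were run over the whole table with edgeR 4.0.16 in R 4.3.3, with Benjamini-Hochberg adjustment over the 16486 genes tested. Both sexes were pooled without covariates for genotype, a choice made here, since the study names DESeq2 but not its design formula. Log2 CPM used a prior count of 2. Correlations were computed with numpy 2.4.6 in Python 3.11.15, with 100000 resamples, and ranks with scipy 1.17.1. Totals were 18345517 or more counts per mouse. How much counting error adds to the spread between mice, above all for genes with few counts, was not computed. DESeq2 1.42.0, limma 3.58.1 voom with sample weights, other size factors, filters, covariates and subsets of mice were alternatives, and the tests were tried on simulated data. The 8 genes, the marker lists and the tests were chosen with earlier results of these data known. Genes named are the 8, the 3 lists of related genes, members of other lists with the smallest p (further ones named here were picked after their values were seen), and the 10 genes most and 5 least correlated with the mean of the 8. The study adjusted its network analysis for harvest date, which the labels do not give. Labels name mice, not litters, so p-values measure the spread between these mice.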

Additional observations from a re-analysis of the deposited data

Results flagged for a closer look

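In groups of 4 to 10 mice, a mouse whose gap to its nearest neighbour took up an unusually large part of its group's range (Dixon's test) was marked, over 36 groups (the 8 genes and Timp2 in 4 groups each), where chance gives about 1.8. There were 5 such values, all from mouse 18 or mouse 28. The 9 genes share their mice and several covary, so the 36 groups are not separate and the 1.8 is only a rough guide. Among TIMP2 KO males, mouse 18 had the highest Wfs1, at 7.30 log2 CPM against 6.58 to 6.79 in the other 5, and the highest Pou3f1, at 7.11 against 6.54 to 6.70. The same mouse had the lowest Timp2, at 7.02 log2 CPM against 7.28 to 7.38. Among WT females, mouse 28 had the highest Gpr161, at 6.46 log2 CPM against 5.96 to 6.16, and the highest Lefty1, at 3.55 against 2.97 to 3.19. These 2 genes were also the closest pair across all mice.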

How the results depend on the processing

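No paired analysis was possible because the mouse numbers in the labels are shared by no 2 groups. No setting gave any of the 8 genes an adjusted p under 0.05. For TIMP2 KO against WT, the count of genes at an unadjusted p under 0.05 was 0 except for 1 (Wfs1) with sex as a covariate and 1 with females alone. Values near 0 changed sign. Pou3f1 was 0.011 with sex as a covariate, 0.021 with males alone and 0.016 without mouse 11, Fibcd1 0.019 with females alone and 0.0095 without mouse 11, Mpped1 -0.0029 with males alone and -3.9e-05 with limma voom, Man1a 0.037 with males alone, and Gpr161 -0.018 without mouse 18. In males without mouse 18, the values for Wfs1 (-0.047), Pou3f1 (-0.072), Spink8 (-0.090), Gpr161 (-0.010) and Lefty1 (-0.035) turned negative and Mpped1 (0.0058) positive. The interaction without mouse 18 had 1 gene (Wfs1) at an unadjusted p under 0.05, and turned positive for Pou3f1 (0.070), Gpr161 (0.035) and Lefty1 (0.14).

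Between the sexes, Spink8 turned positive with DESeq2 (0.0018), without mouse 18 (0.034) and in TIMP2 KO mice alone (0.053), as did Fibcd1 in TIMP2 KO mice alone (0.012). The count of correlated pairs, 19 in all mice, was 12 with sex and genotype removed, 12 in WT alone, 12 without mouse 18, 2 in TIMP2 KO alone, 3 in females and 5 in males, where fewer mice enter. Other normalizations, the prior count and total counts left 19, and Spearman's rho gave 17. The r of Fibcd1 and Man1a was -0.074 in WT and -0.26 in females, that of Spink8 and Man1a -0.010 in TIMP2 KO and -0.13 in females, that of Man1a with Gpr161 -0.030 and with Lefty1 -0.16 in females, and that of Wfs1 and Mpped1 -0.028 in males. Without mouse 18 the count of list genes at an unadjusted p under 0.05 went from 1 to 2 for pyramidal genes shared by the CA fields, from 0 to 1 for microglia and for striatum, from 5 to 6 for dentate granule cells and from 2 to 3 for neocortex. Between the sexes it went from 2 to 1 for CA2 and for striatum, from 1 to 2 for microglia and from 1 to 0 for endothelial genes. The cause was not tested. Counts of Lefty1, at 169 to 619 per mouse, are the fewest of the 8 genes and had the widest interval.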

Other observations

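The mean of the 8 standardised levels ran from -1.04 in mouse 11 (a TIMP2 KO female, with the highest mean of choroid plexus genes, at 6.09 log2 CPM) to 1.90 in mouse 18 (a TIMP2 KO male). In mouse 18, 4 of 7 CA2 genes were at their highest over the 30 mice. Rgs14, a regulator of G protein signalling, was among them, at 163 CPM against 95.5 to 143 in the others. In the same mouse the rest of the CA2 list lay below the median of the other mice. Ntf3 was at 6.25 CPM against a median of 8.04, Necab2 at 67.3 against 84.0 and Pcp4 at 62.6 against 63.9. Of 9 dentate granule cell genes 1 was at its highest and 0 were at their lowest there. The same share over all genes was not computed. Lefty2 lay at 0.39 CPM in mouse 18 against 0.75 to 2.21 elsewhere, while Lefty1 was at its highest. The position of these mice in the dissection or harvest was not in the labels.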
